A study of Mus musculus with 24 samples.

Results

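This comparison set livers of mice that had received a virus coding for green fluorescent protein against livers of mice that had received none, both with an intact Foxo1 gene and both taken after refeeding. The GFP refed group had 3 libraries from C57BL/6 mice of genotype FoxO1lox/lox, in which the Foxo1 alleles are flanked by loxP sites. These mice were injected with AAV8.TBG.eGFP through the tail vein and their livers were collected on day 21, after a fast of 4 h and 1 h of refeeding. The WT refed group had 3 libraries from C57BL/6 mice of the same floxed genotype with no virus and no Cre, fasted and refed on the same schedule. The 6 libraries were chosen by their titles from a series of 24 in 8 groups of 3, all of stranded mRNA libraries from snap-frozen liver. The other groups used here as a setting are the same 2 controls after the fast alone (GFP fasted and WT fasted), and the refed livers without Foxo1: floxed mice given AAV8.TBG.Cre (Cre refed) and floxed mice that carry an albumin-Cre transgene (KO refed). GFP refed livers are the controls of the acute deletion model and WT refed livers those of the constitutive model, so virus, eGFP, injection and mouse cohort cannot be told apart in their difference. The labels do not state that replicates are separate animals. A p-value here compares a difference with how much libraries vary within groups, pooled over all 8 groups. That variation may be technical, and it is not the spread of the 2 compared groups alone.

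AAV8 is an adeno-associated virus that takes readily to liver, and the TBG promoter restricts its transgene to hepatocytes, so such a virus coding for a fluorescent protein is the usual control for one coding for Cre. Refeeding raises insulin, which switches hepatocytes from glucose output to glycogen and lipid synthesis and keeps the transcription factor FoxO1 out of the nucleus. Many genes of the male mouse liver depend further on the pulsed release of growth hormone and on androgens, among them those of the major urinary proteins and of several cytochromes P450.

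The depth of a library relative to the mean of all 24, recovered from the steps between low FPKM values, was 0.651, 0.621 and 1.37 in GFP refed livers 1, 2 and 3, and 1.16, 1.16 and 1.27 in WT refed livers 1, 2 and 3. Total depth is unknown. FPKM is a level per transcript length and per mapped fragments. All 24 libraries had the expression of male livers, with at most 0.0372 FPKM of Xist and 12.9 to 31.6 FPKM of the Y-linked Eif2s3y. Whole profiles did not set the groups apart: the SD of the log2 difference between libraries was 0.477 to 0.513 within GFP refed livers, 0.372 to 0.396 within WT refed livers and 0.436 to 0.489 between the groups. Hepatocyte markers were abundant, with Alb, the gene of serum albumin, at 35560, 44010 and 51490 FPKM in GFP refed livers, against 37800, 31530 and 37860 FPKM in WT refed livers.

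Foxo1 was intact in both groups. It had 5.74, 6.81 and 5.91 FPKM in GFP refed livers, against 4.92, 5.30 and 6.79 FPKM in WT refed livers, while Cre refed livers averaged 0.415 ± 0.136 FPKM and KO refed livers 0.415 ± 0.0244 FPKM (SD, n = 3 each). The 2 control groups overlapped, with a log2 difference of 0.11 ± 0.11 (SE; limma, adjusted p = 0.63). Differences are given as GFP refed minus WT refed on the log2(FPKM + 1) scale, which understates changes of low genes, with limma's standard error.

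Of 10682 gene loci tested, 101 differed between GFP refed and WT refed livers at a Benjamini-Hochberg adjusted p under 0.05 (limma), which is 0.946%. The level was higher in GFP refed livers at 83 of them (0.777% of the loci tested) and lower at 18 (0.169%). All loci together were shifted slightly upward, with 68.4% above 0 and a median log2 difference of 0.08. When libraries were scaled to a common median the number of calls was again 101, but 33 were higher and 68 lower, and 51 of the original calls remained, 33 higher and 18 lower. The direction held at each of the 101 loci under each alternative run, while the number of calls depended on single WT refed libraries: without WT refed 1 it was 250, without WT refed 2 it was 1 (Nab1) and without WT refed 3 it was 6. It was 105, 62 and 116 without GFP refed 1, 2 and 3. A fit of the 6 refed libraries alone, with their own spread, called 6 loci. Of the higher calls described in the following paragraphs, Fam108b, Fam167b, Srebf2, Stard4, Fads1, Fads2, Oat, Pigr, Cpox and Eef1e1 were not called under the common-median scaling, with limma adjusted p between 0.053 and 0.11. Over all loci, 18.8% had an unadjusted p under 0.05, and the groups did not overlap at 16.9% on the high side and at 4.04% on the low side. At all 101 called loci the groups did not overlap, so this trait adds no separate support to a call.

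**Figure D1:**
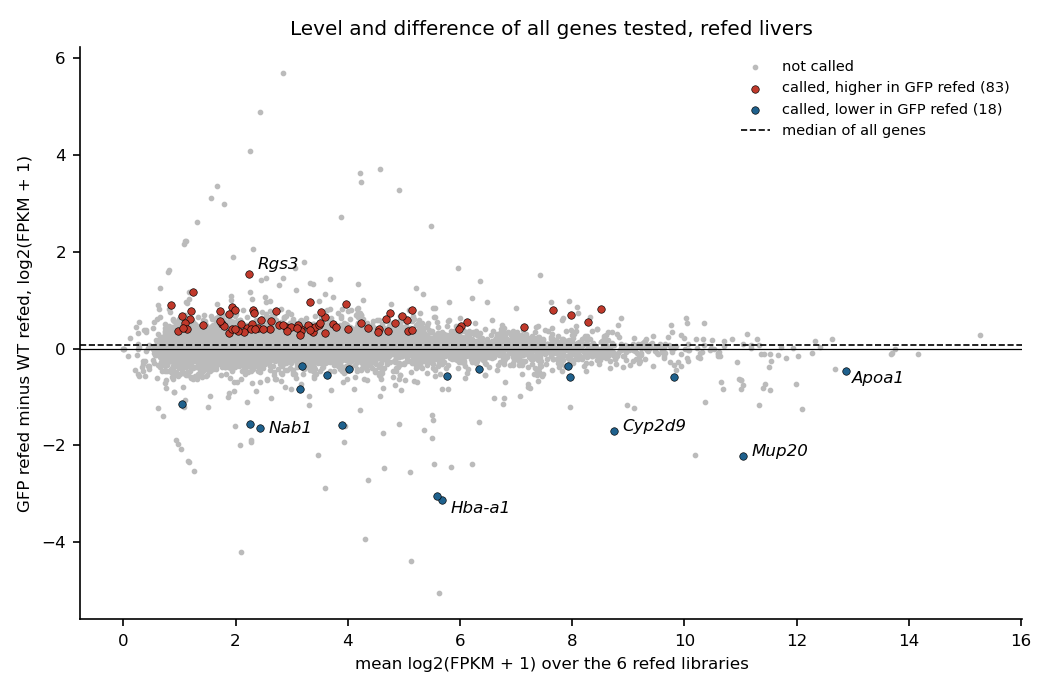
Each dot is 1 of the 10682 loci tested: its mean log2(FPKM + 1) over the 6 refed libraries on the x axis and its log2 difference, GFP refed minus WT refed, on the y axis. The 83 higher (red) and 18 lower (blue) calls lie at all levels of expression, and the dashed line marks the median of 0.08.

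GFP refed 1 and 2 were the shallow libraries of the comparison. With the log2 relative depth of each library as a term of the fit 183 loci were called, 151 higher and 32 lower, and 83 of the 101 were among them. Fam108b, Oat, Stard4, Fads2, Cyp27a1 and Ces3a were not, with limma adjusted p between 0.051 and 0.070. A fit of the 16 libraries deeper than the mean kept GFP refed 3 as the only library of its group, whose variance is then taken from the other groups; it called 47 loci, 10 of them among the 101. Those 10 were Nab1, Rgs3, Mup20, Cyp2d9, Cyp2d12, Tstd1, Fam167b, Pnrc1 and both Hba-a1 loci. Calls made up 0.525% of the loci under a mean of 2 FPKM, 0.959% from 2 to 5 FPKM, 1.03% from 5 to 20 FPKM and 1.16% from 20 FPKM upward.

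The clearest single difference was in Nab1, whose product is a corepressor bound by the EGR family of transcription factors. Nab1 had 2.39, 1.80 and 2.03 FPKM in GFP refed livers, against 7.54, 9.07 and 9.20 FPKM in WT refed livers. The groups lay far apart and each was narrow, with means of 2.08 ± 0.298 and 8.60 ± 0.924 FPKM (SD, n = 3 each), a ratio of 4.14 in favour of WT refed livers. The log2 difference of -1.64 ± 0.16 had an adjusted p of 2.2e-05 (limma), and Nab1 was called in every alternative fit, with adjusted p between 9.9e-05 and 0.00044 when any 1 library was left out. The gene lies at chr1:52455849-52500448 (mm10).

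After the fast alone the same gene did not separate the groups: it had 2.90, 3.38 and 2.76 FPKM in GFP fasted livers and 2.13, 2.65 and 3.08 FPKM in WT fasted livers (log2 difference 0.15 ± 0.16, limma adjusted p = 0.72). The difference between the refed and the fasted comparison was itself the only one of 10682 that passed (0.00936%), at -1.80 ± 0.22 with a limma adjusted p of 0.0013. Livers without Foxo1 had a like difference after refeeding, with 2.04, 2.82 and 1.84 FPKM in Cre refed livers and 5.90, 8.17 and 10.4 FPKM in KO refed livers, a log2 difference of -1.48 ± 0.16 (limma adjusted p = 5.8e-05). Among the 8 groups Nab1 was thus high in WT refed and KO refed livers, and between 2.07 and 3.02 FPKM on average in the other 6.

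**Figure D2:**
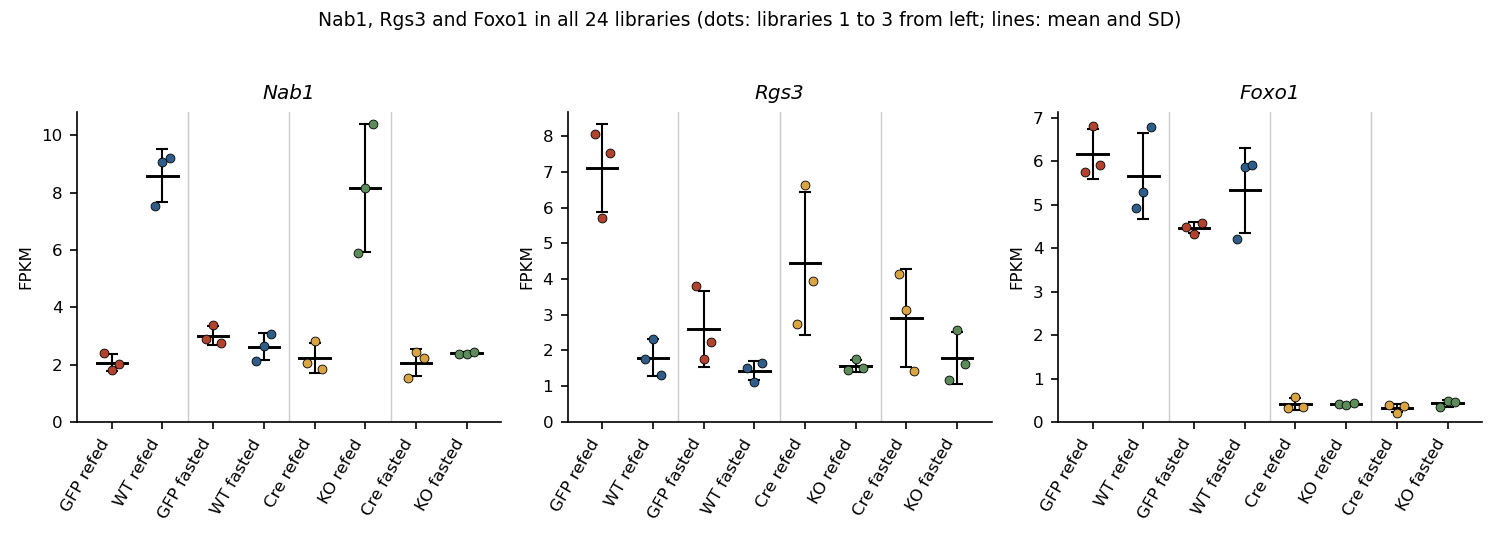
FPKM of Nab1, Rgs3 and Foxo1 (y axes) in each of the 24 libraries, by group (x axis), with lines at the mean and 1 SD. Nab1 is above 5 FPKM in WT refed and KO refed livers alone, Rgs3 has its highest mean in GFP refed livers, and Foxo1 is below 0.6 FPKM in the 4 groups without it.

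The sequence before the start of Nab1 is shown because EGR proteins recognise a 9-base GC-rich element. The 250 bases before the RefSeq start (GRCm38.p6, chr1:52500449-52500698, minus strand, written in the direction of the gene) are given with the matches to GCGTGGGCG or GCGGGGGCG on either strand in capitals.
Nab1: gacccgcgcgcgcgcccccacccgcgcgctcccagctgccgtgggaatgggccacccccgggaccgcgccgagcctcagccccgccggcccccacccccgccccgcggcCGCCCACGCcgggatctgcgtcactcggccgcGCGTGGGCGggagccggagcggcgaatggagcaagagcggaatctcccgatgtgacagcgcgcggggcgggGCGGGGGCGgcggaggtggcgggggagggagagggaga
There were 3 matches, counted from -1 at the base before the start: GCGTGGGCG from -141 to -133 and from -109 to -101, and GCGGGGGCG from -38 to -30. Of 32851 RefSeq promoters of the same length, 0.536% held GCGTGGGCG and 2.57% held GCGGGGGCG, and 16 held both. A match is a description of the letters, and binding was not measured. Egr1 itself had 0.953, 1.45 and 1.08 FPKM in GFP refed livers, against 3.38, 2.28 and 1.33 FPKM in WT refed livers, and the related corepressor gene Nab2 had 4.05, 3.62 and 3.67 FPKM against 2.82, 4.27 and 2.42 FPKM. Both overlapped between the groups. Egr1 averaged 1.925 FPKM in Cre refed and 2.253 FPKM in KO refed livers. After the fast alone it averaged 9.014 ± 8.836 FPKM in GFP fasted and 1.815 ± 0.6403 FPKM in WT fasted livers (SD, n = 3 each). A link between Egr1 and Nab1 was not tested.

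Genes of the male liver programme made up the second pattern on the low side. Of 21 listed male-biased liver genes 20 were tested and 20 lay below 0, where 31.6% of all loci did, with a median log2 difference of -1.15 against 0.08 for all loci. With any 1 library left out the median ran from -1.44 to -0.85. The limma calls were Mup20 and Cyp2d9, where 0.169% of all loci were called lower. At 6 of the 20 the groups did not overlap on the low side, as at 4.04% of all loci. Mup20, which codes for the urinary pheromone protein darcin, had 2175, 790 and 546 FPKM in GFP refed livers, against 4493, 6778 and 3055 FPKM in WT refed livers. Each GFP refed liver was below each WT refed liver, at a log2 difference of -2.21 ± 0.48 (adjusted p = 0.032). Cyp2d9, a steroid hydroxylase of male mouse liver, had 293, 136 and 330 FPKM in GFP refed livers, against 725, 834 and 747 FPKM in WT refed livers, a log2 difference of -1.70 ± 0.33 (limma adjusted p = 0.021). Cyp2d12 and Mup4, of the same families and outside the list, were called lower as well, with log2 differences of -1.57 ± 0.32 and -1.15 ± 0.23. Mup4 was a low gene, with 0.790, 0.148 and 0.301 FPKM in GFP refed livers, against 1.37, 2.655 and 2.36 FPKM in WT refed livers. Mup20, Cyp2d9, Cyp2d12 and Mup4 each lost their call when GFP refed 2, WT refed 2 or WT refed 3 was left out. Members of the Mup and Cyp2d families are near-identical in sequence, and the authors' assignment of fragments among them is uncertain.

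The 3 GFP refed livers were not alike in these genes. Cyp4a12a, which makes a vasoactive arachidonic acid metabolite in males, had 122, 14.8 and 6.68 FPKM in GFP refed livers, against 261, 104 and 85.0 FPKM in WT refed livers (log2 difference -2.44 ± 0.72, limma adjusted p = 0.093). Hsd3b5, a male hydroxysteroid dehydrogenase, had 33.1, 2.72 and 8.26 FPKM, against 26.3, 74.6 and 96.6 FPKM. C6, of the terminal complement pathway, had 53, 7.10 and 11.5 FPKM, against 43.4, 65.7 and 46.5 FPKM. In all 3 of these genes GFP refed 1 lay within the WT refed range, and GFP refed 2 and 3 lay below it.

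Female-biased liver genes had a median of 0.57 in the same comparison, with no limma call. Of 15 loci tested 10 lay above 0, a share close to the 68.4% of all loci, and 6 higher and 1 lower had an unadjusted p under 0.05, which 18.8% of all loci had. With any 1 library left out the median ran from 0.27 to 0.87. Cyp2b13, normally a cytochrome P450 of female livers, had 0.254, 62.4 and 93.3 FPKM in GFP refed livers, against 0.238 and 0.290 FPKM in WT refed 1 and 3 and a listed 0 in WT refed 2. Cyp2b9 had 10.3, 109 and 187 FPKM, against 9.96, 0.568 and 9.80 FPKM. In both of these genes GFP refed 1 was close to the WT refed livers, and GFP refed 2 and 3 stood apart. Of the growth hormone pathway, 10 of 12 tested genes lay above 0 with a median of 0.16, with no limma call and 3 at an unadjusted p under 0.05; its receptor Ghr had 178, 197 and 185 FPKM in GFP refed livers and 186, 165 and 184 FPKM in WT refed livers.

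**Figure D3:**
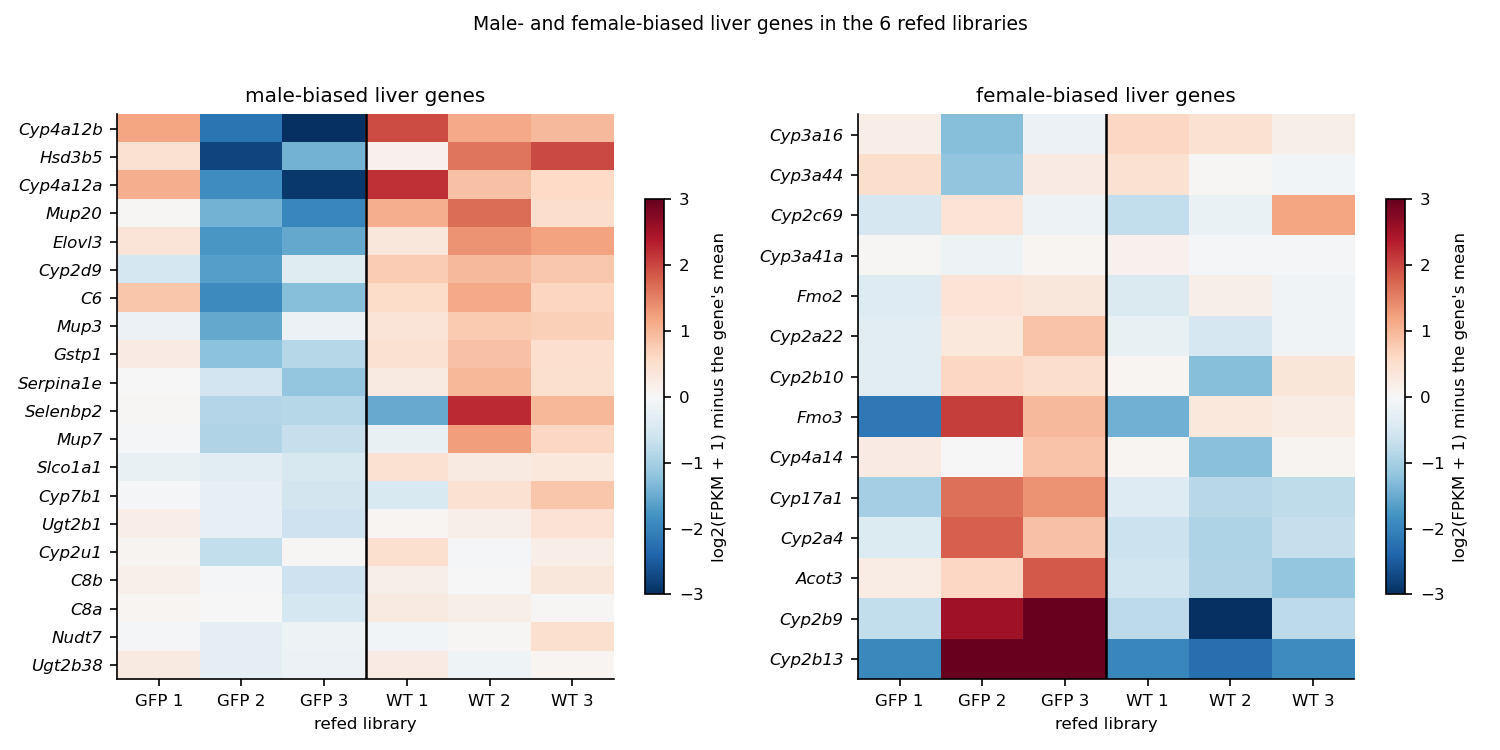
log2(FPKM + 1) of the tested male-biased (left) and female-biased (right) liver genes, by row, in the 6 refed libraries, by column, less the gene's mean over the 6. The mean log2 level of the male-biased list is lowest in GFP refed 2 (6.12) and next in GFP refed 3, against 7.36 in GFP refed 1 and 7.54 to 7.96 in WT refed livers. This order does not hold for each gene (Cyp2d9 is lower in GFP refed 1 than in GFP refed 3), and Cyp2b9 and Cyp2b13 are highest in GFP refed 2 and 3.

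Transcripts of red cells were low in livers with virus. Hba-a1, an alpha globin, is listed at 2 loci of near-identical sequence: at chr11:32296489-32297303 (mm10) it had 7.75, 32.5 and 15.1 FPKM in GFP refed livers, against 105, 152 and 164 FPKM in WT refed livers, with no overlap. The log2 difference was -3.05 ± 0.57 there and -3.13 ± 0.58 at the other locus (limma adjusted p = 0.017 at each). Hbb-b1, a beta globin, had 20.5, 29.6 and 11.7 FPKM in GFP refed livers, against 79.7, 109 and 134 FPKM in WT refed livers, and missed the threshold (-2.39 ± 0.70, adjusted p = 0.092). All 6 erythroid loci tested lay below 0, where 31.6% of all loci did, with a median of -2.16. Their summed level was 47.7 to 103 FPKM in GFP refed livers and 321 to 539 FPKM in WT refed livers. In whole liver RNA, fewer cells of a type and less RNA per cell cannot be told apart.

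None of the listed markers of sinusoidal endothelial cells, Kupffer cells and macrophages, or stellate cells and fibroblasts was called. The 8 sinusoidal endothelial markers all lay above 0, where 68.4% of all loci did, with a median of 0.51. Their summed level was 55.1 to 72.4 FPKM in GFP refed livers and 33.0 to 39.6 FPKM in WT refed livers. At 5 the unadjusted p was under 0.05 (limma), as at 18.8% of all loci. Clec4g, a lectin of these cells, had 35.9, 32.3 and 42.2 FPKM in GFP refed livers, against 18.5, 17.4 and 21.2 FPKM in WT refed livers, without overlap (0.91 ± 0.23, adjusted p = 0.061). Of 9 Kupffer cell and macrophage markers 8 lay below 0, where 31.6% of all loci did, with a median of -0.47. At 5 of these markers the groups did not overlap on the low side (4.04% of all loci), and none had an unadjusted p under 0.05 (limma). Their summed level was 76.5, 157 and 149 FPKM in GFP refed livers and 169 to 184 FPKM in WT refed livers, so that GFP refed 1 was the lowest, and with any 1 library left out the median ran from -0.60 to -0.22. It was -0.11 with depth as a term and -0.19 in the deeper libraries. Stellate cell and fibroblast markers had 3 of 8 above 0, a median of -0.16 and 2 at an unadjusted p under 0.05 (limma). No T or NK cell marker reached the filter on low values, and the part of these cells in the other differences was not tested.

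The largest higher call on the log2(FPKM + 1) scale was Rgs3, which codes for a GTPase-activating protein that shortens G protein signals. It had 8.05, 5.71 and 7.52 FPKM in GFP refed livers, against 1.75, 2.33 and 1.30 FPKM in WT refed livers, a ratio of means of 3.95 and a log2 difference of 1.54 ± 0.27 (limma adjusted p = 0.016). The 2 groups did not overlap. The highest adjusted p with any 1 library left out was 0.085, and the call was lost without WT refed 2 and without WT refed 3. In fasted livers Rgs3 had 3.80, 1.75 and 2.25 FPKM with virus and 1.5, 1.13 and 1.65 FPKM without (0.53 ± 0.27, adjusted p = 0.45), and the difference between the refed and fasted values did not pass (limma adjusted p = 0.42).

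P4ha2, a subunit of collagen prolyl hydroxylase, had 5.27, 3.47 and 4.12 FPKM in GFP refed livers, against 2.30, 1.86 and 1.96 FPKM in WT refed livers (0.79 ± 0.14, limma adjusted p = 0.017). Its groups did not overlap. Other large calls by the same rule were Fam108b (now Abhd17b), a depalmitoylating enzyme, at 0.96 ± 0.22, and Ncald, a calcium sensor protein, at 0.85 ± 0.17. Fam167b and Tstd1 followed at 0.80 ± 0.18 and 0.80 ± 0.16. Adjusted p for these 4 was between 0.024 and 0.040 (limma).

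Apart from the predicted gene Gm4956 (-1.55 ± 0.27), the lower calls outside the groups above had log2 differences between -0.83 and -0.37. Pnrc1, a small nuclear receptor coactivator, had 5.70, 6.55 and 4.92 FPKM in GFP refed livers, against 11.7, 9.30 and 11.9 FPKM in WT refed livers, with a log2 difference of -0.83 ± 0.15 (limma adjusted p = 0.017). Ces3a, a liver carboxylesterase, had 825, 654 and 719 FPKM, against 1086, 1083 and 1114 FPKM, and its log2 difference was -0.58 ± 0.13. Gne, the first enzyme of sialic acid synthesis, Rpl35a, of the large ribosomal subunit, and Zfp825, a zinc finger gene, had log2 differences of -0.56 ± 0.11, -0.58 ± 0.14 and -0.54 ± 0.12.

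**Figure D4:**
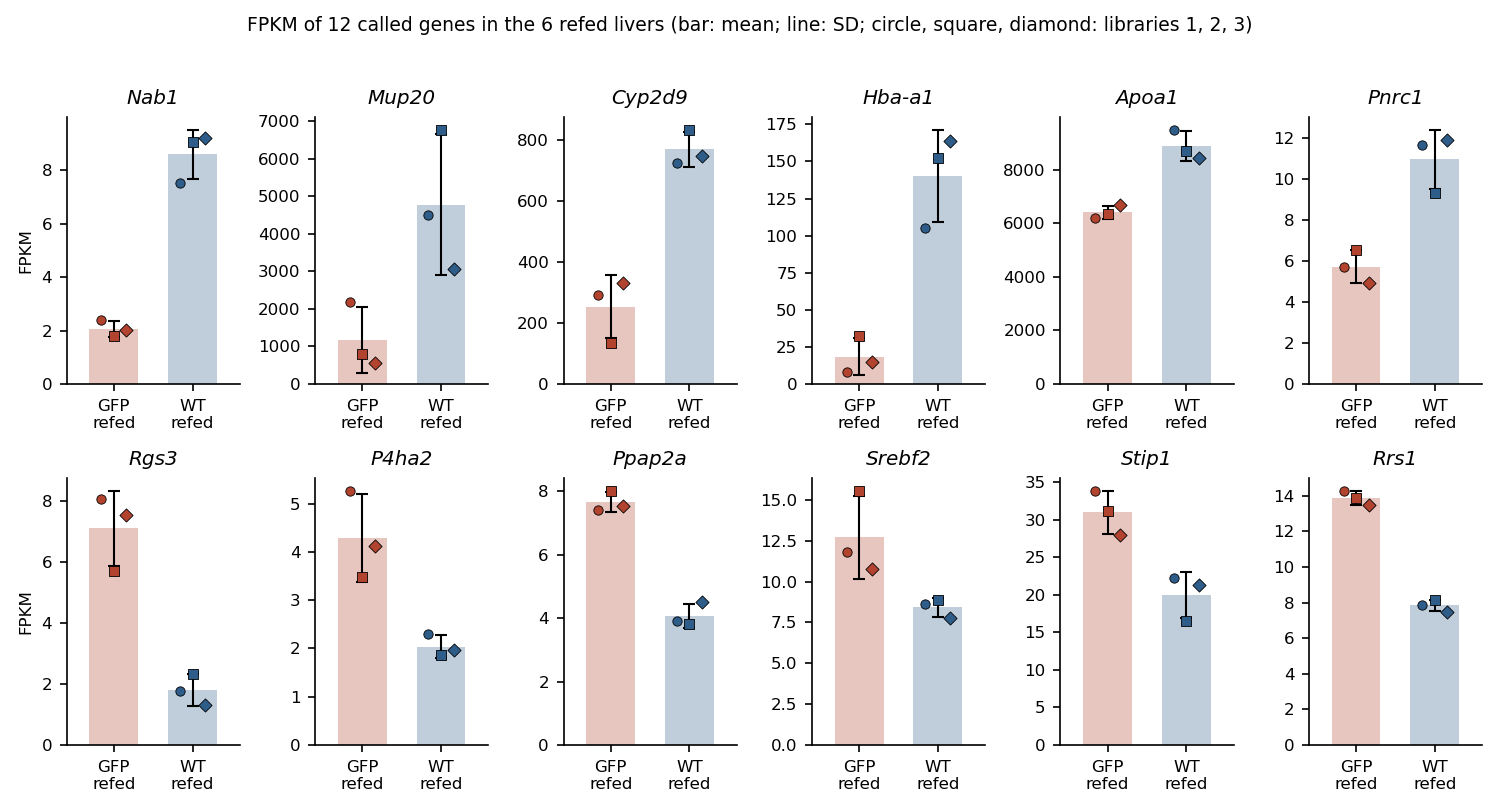
FPKM (y axes) of 12 called genes in GFP refed (left, red) and WT refed (right, blue) livers: bars are means, lines 1 SD and symbols the 3 libraries. In each panel the 2 groups do not overlap, as at all 101 called loci. Nab1 is between 1.80 and 2.39 FPKM in GFP refed livers and between 7.54 and 9.20 FPKM in WT refed livers.

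Cholesterol synthesis genes lay high as a group. Of 23 tested 22 were above 0, where 68.4% of all loci were, the median was 0.61, and 19 had non-overlapping groups on the high side, where 16.9% of all loci did. Srebf2 and Stard4 were called higher, where 0.777% of all loci were. Of the 23 genes 15 had an unadjusted p under 0.05 (limma) on the high side. Over all loci 18.8% had one in either direction. Srebf2, the transcription factor that drives the pathway when sterols are low, had 11.8, 15.6 and 10.8 FPKM in GFP refed livers, against 8.61, 8.87 and 7.78 FPKM in WT refed livers (0.53 ± 0.11, limma adjusted p = 0.024). Stard4, a cytosolic sterol carrier, had 35.8, 29.9 and 35.3 FPKM, against 23.2, 18.3 and 18.3 FPKM (0.73 ± 0.17, limma adjusted p = 0.043). Neither was called under the common-median scaling (adjusted p = 0.055 and 0.081).

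Enzymes of the pathway were led by GFP refed 2. Hmgcs1, the cytosolic synthase early in the pathway, had 96.3, 172 and 71.1 FPKM in GFP refed livers, against 47.4, 66.0 and 41.2 FPKM in WT refed livers (1.05 ± 0.41, limma adjusted p = 0.17). Sqle, squalene epoxidase, had 67.2, 80.8 and 38.0 FPKM, against 24.5, 31.4 and 24.3 FPKM (1.13 ± 0.34, limma adjusted p = 0.097). Idi1, an isomerase of isoprenoid precursors, had 128, 169 and 88.6 FPKM, against 65.9, 67.0 and 57.9 FPKM (0.96 ± 0.33, limma adjusted p = 0.12). The groups did not overlap in any of these 3 genes. The list's median was 0.33 in the fasted comparison, with 22 of 23 above 0, and 0.38 in the fit of the deeper libraries. It ran from 0.44 to 0.68 with any 1 refed library left out.

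Of 17 fatty acid synthesis genes 2 were called higher, where 0.777% of all loci were, both of them desaturases of polyunsaturated fatty acids. Fads1 had 168, 154 and 168 FPKM in GFP refed livers, against 132, 107 and 119 FPKM in WT refed livers (0.45 ± 0.09, limma adjusted p = 0.027), and Fads2 had 369, 282 and 311 FPKM, against 236, 159 and 204 FPKM (0.69 ± 0.16, adjusted p = 0.045). Neither was called under the common-median scaling (limma adjusted p = 0.053 and 0.087). Of the 17 genes 10 lay above 0 with a median of 0.09, which was -0.01 under that scaling and between -0.06 and 0.25 with any 1 library left out. Of 30 PPAR-alpha targets and fatty acid oxidation genes 27 lay above 0, where 68.4% of all loci did, with a median of 0.22. At 14 the unadjusted p was under 0.05 (limma), all on the high side, where 18.8% of all loci had one in either direction. None of the 30 genes was called. Among them Acadm, a medium-chain acyl-CoA dehydrogenase, was at 0.38 ± 0.10 (adjusted p = 0.066) and Ehhadh, the peroxisomal bifunctional enzyme, at 0.58 ± 0.17 (adjusted p = 0.090). Under the common-median scaling 21 of the 30 lay above 0, with a median of 0.13.

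Chaperone genes also lay high after refeeding. All 16 heat shock chaperone genes were above 0, where 68.4% of all loci were, with a median of 0.35. At 9 of them the groups did not overlap on the high side, as at 16.9% of all loci, and 12 had an unadjusted p under 0.05, where 18.8% of all loci did. The call was Stip1, the co-chaperone that joins Hsp70 to Hsp90, with 33.8, 31.1 and 28.0 FPKM in GFP refed livers, against 22.2, 16.5 and 21.4 FPKM in WT refed livers (0.61 ± 0.11, limma adjusted p = 0.017). Hsp90aa1, the inducible cytosolic Hsp90, had 80.7, 62.5 and 43.4 FPKM, against 44.2, 25.1 and 33.0 FPKM (0.84 ± 0.20, limma adjusted p = 0.052). Hsph1, an Hsp70 exchange factor, had 28.1, 21.4 and 20.6 FPKM, against 15.9, 9.44 and 13.3 FPKM (0.83 ± 0.22, limma adjusted p = 0.066). In each of these 3 genes WT refed 2 was the lowest library. In fasted livers the list's median was -0.20, with 4 of 16 above 0. With any 1 library left out the refed median ran from 0.23 to 0.44.

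Genes of ribosome assembly lay high with smaller values, 21 of 22 above 0, where 68.4% of all loci were, and a median of 0.18. At 6 the groups did not overlap on the high side (16.9% of all loci), and 6 had an unadjusted p under 0.05 (limma; 18.8% of all loci). Under the common-median scaling 18 of 22 were above 0 with a median of 0.10. In fasted livers 10 of 22 were above 0 with a median of -0.02. Rrs1, an assembly factor of the large subunit, had 14.3, 13.9 and 13.5 FPKM in GFP refed livers, against 7.88, 8.13 and 7.49 FPKM in WT refed livers, with a log2 difference of 0.75 ± 0.13 (limma adjusted p = 0.016). Both groups were tight and far apart. Of 40 listed cytosolic ribosomal protein genes, which do not include the called Rpl35a, 8 lay above 0, with a median of -0.09, no call, 14 with non-overlapping groups on the low side (4.04% of all loci) and 9 at an unadjusted p under 0.05 (limma), 8 of them low. Endoplasmic reticulum chaperones had 16 of 20 above 0, a median of 0.21, no call and 3 at an unadjusted p under 0.05 (limma); Hsp90b1, the Hsp90 of that compartment, was at 0.66 ± 0.18 (adjusted p = 0.068). The median of this list ran from 0.08 to 0.33 with any 1 library left out, lowest without GFP refed 2, and was -0.02 in the deeper libraries.

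**Figure D5:**
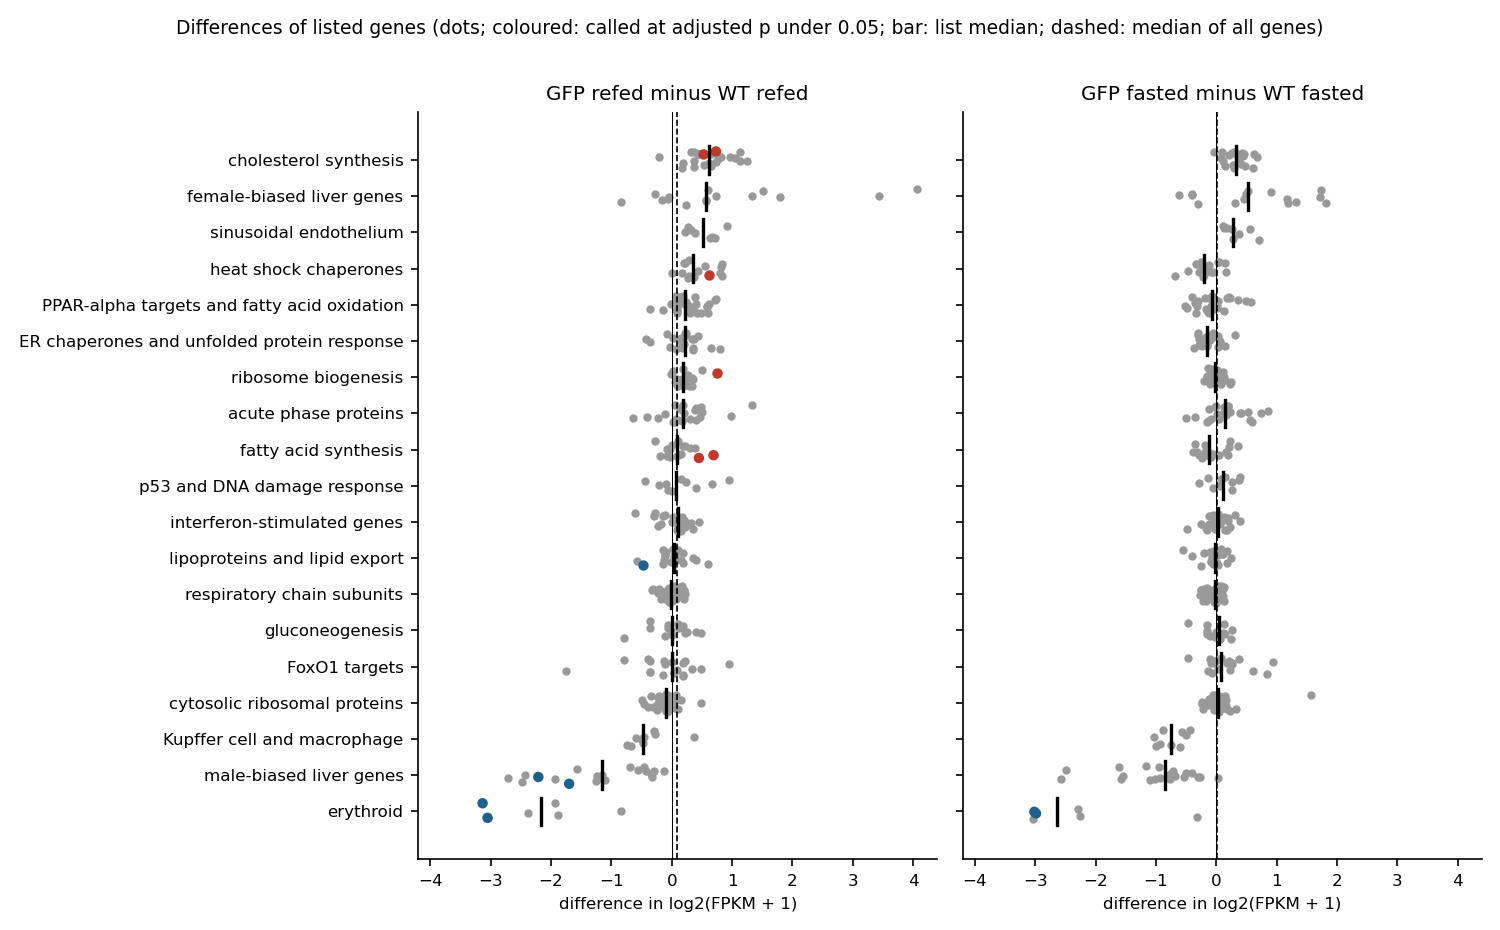
Log2 difference (x axis) of every tested gene of 19 lists (rows), refed on the left and fasted on the right; coloured dots were called, bars are list medians and the dashed line is the median of all loci. In refed livers cholesterol synthesis has the highest median of these lists (0.61), erythroid markers (-2.16) and male-biased genes (-1.15) have the lowest, and the heat shock list changes from 0.35 in the refed to -0.20 in the fasted comparison.

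Secreted and transport proteins of hepatocytes gave further single calls. Apoa1, the main protein of high-density lipoprotein, had 6215, 6346 and 6680 FPKM in GFP refed livers, against 9506, 8723 and 8436 FPKM in WT refed livers (-0.47 ± 0.09, limma adjusted p = 0.024). It was the 1 call among 21 genes of lipoproteins and lipid export, of which 12 lay above 0, and among 6 hepatocyte markers, whose median was -0.04. Over all loci 0.169% were called lower. The Apoa1 call was lost without GFP refed 1, GFP refed 2, WT refed 2 or WT refed 3 (limma adjusted p up to 0.11). Cyp27a1, a mitochondrial sterol hydroxylase of the alternative bile acid pathway, had 218, 217 and 207 FPKM, against 287, 254 and 289 FPKM (-0.37 ± 0.09, limma adjusted p = 0.048). It was the 1 call among 19 bile acid genes, where 0.169% of all loci were called lower, and was lost when any 1 library was left out (limma adjusted p between 0.071 and 0.16) and with depth as a term (limma adjusted p = 0.070). In both genes every GFP refed liver was below every WT refed liver.

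Pigr, the receptor that carries polymeric immunoglobulin into bile, had 326, 384 and 419 FPKM in GFP refed livers, against 325, 218 and 236 FPKM in WT refed livers (0.55 ± 0.12, limma adjusted p = 0.032). GFP refed 1 was barely above WT refed 1 in Pigr. Oat, ornithine aminotransferase, had 574, 494 and 407 FPKM, against 255, 314 and 259 FPKM (0.82 ± 0.19, limma adjusted p = 0.044), and Slc1a2, a glutamate transporter, had 42.8, 41.8 and 31.6 FPKM, against 24.1, 23.6 and 23.5 FPKM (0.67 ± 0.11, limma adjusted p = 0.016). Oat and Slc1a2 were the calls among 16 pericentral genes, where 0.777% of all loci were called higher, and 10 of the 16 lay above 0 with a median of 0.11. Oat was not called under the common-median scaling (limma adjusted p = 0.080) or with depth as a term (0.058). Cpox, of heme synthesis, had 36.1, 46.0 and 38.2 FPKM, against 24.4, 28.5 and 25.9 FPKM (0.59 ± 0.12, limma adjusted p = 0.029).

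Genes through which insulin and FoxO1 control glucose output did not pass. Of 19 FoxO1 target genes tested 9 lay above 0, with a median of 0.00, no call, and 6 at an unadjusted p under 0.05 (limma), 3 in each direction. G6pc, the phosphatase that releases glucose, had 73.7, 171 and 111 FPKM in GFP refed livers, against 291, 111 and 227 FPKM in WT refed livers (-0.79 ± 0.37, limma adjusted p = 0.26). Igfbp1, an insulin-suppressed binding protein, had 7.89, 38.4 and 5.93 FPKM, against 43.7, 32.7 and 60.3 FPKM (-1.75 ± 0.56, limma adjusted p = 0.11). Igfbp1 passed without GFP refed 2 (-2.53, limma adjusted p = 0.029), the only GFP refed liver within the WT refed range. The fit of the deeper libraries also lacks GFP refed 2 and keeps only GFP refed 3 of its group, and it put Igfbp1 at -2.71.

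Ppargc1a, a coactivator of gluconeogenic genes, had 2.84, 1.43 and 2.45 FPKM in GFP refed livers, against 1.34, 1.21 and 1.28 FPKM in WT refed livers (0.48 ± 0.15, limma adjusted p = 0.11), and passed without GFP refed 2 (0.68, limma adjusted p = 0.037). Pck1, the carboxykinase of gluconeogenesis, was at -0.36 ± 0.28, Irs2, an insulin receptor substrate, at -0.36 ± 0.20 and Foxo3 at 0.23 ± 0.19. Srebf1, the lipogenic transcription factor, was at -0.07 ± 0.28, Cyp7a1, the first enzyme of bile acid synthesis, at 0.20 ± 0.29, and the hormone gene Fgf21 at 0.18 ± 0.23. Serpina7, which codes for thyroxine-binding globulin, the source of the TBG promoter, had 22.2, 22.0 and 13.5 FPKM, against 19.8, 8.55 and 6.34 FPKM (0.81 ± 0.36). Nnt, which is truncated in the C57BL/6J substrain, had 12.4, 10.3 and 11.8 FPKM, against 11.9, 9.05 and 11.9 FPKM (0.07 ± 0.12). From Pck1 to Nnt the limma adjusted p was between 0.23 and 0.92, and none of these 8 genes passed. Among 4 genes that differ between C57BL/6 substrains, at 5 loci, there was no limma call and 1 locus had an unadjusted p under 0.05.

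The 4 lists of interferon-stimulated, interferon-gamma and antigen presentation, acute phase, and p53 and DNA damage genes gave no call. This covers the listed genes only. Of 25 interferon-stimulated genes 18 lay above 0 with a median of 0.11, close to that of all loci, and 1 had an unadjusted p under 0.05 (limma). Their median was -0.12 in the deeper libraries and -0.01 without WT refed 2. Of 24 genes of interferon-gamma and antigen presentation 11 lay above 0 with a median of -0.03, and 2 had an unadjusted p under 0.05. Of 24 acute phase genes 20 lay above 0 with a median of 0.18, and 4 had an unadjusted p under 0.05. GFP refed 2 stood above the other livers in this list, with a mean log2(FPKM + 1) of 7.39, 8.47 and 7.32 in GFP refed livers and 7.32 to 7.69 in WT refed livers, and the median was -0.04 without GFP refed 2 and -0.07 in the deeper libraries. The p53 and DNA damage list had 5 of 10 above 0, a median of 0.08 (-0.02 under the common-median scaling) and 2 at an unadjusted p under 0.05. None of these 4 lists had a call with 3 libraries a group, and the level of eGFP itself was not analysed here.

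The same controls after the fast alone share no library with the refed groups. Calls of both comparisons rest on a shared estimate of spread at each locus and are not independent. The fasted controls gave 11 calls among 10682 loci (0.103%), 7 higher and 4 lower. Of the 83 higher refed calls 60 lay above 0 there (72.3%, against 52.9% of all loci), and of the 18 lower ones 12 lay below 0 (66.7%, against 47.1%). The 2 lists of calls had 4 loci in common, which is 2.41% of the higher and 11.1% of the lower refed calls, and 28.6% and 50.0% of the fasted ones. They were Ppap2a and Eef1e1 on the high side and both Hba-a1 loci on the low side. Ppap2a (now Plpp1), a phosphatase of lysophosphatidic acid, had 7.41, 8.01 and 7.53 FPKM in GFP refed livers, against 3.90, 3.81 and 4.51 FPKM in WT refed livers (0.77 ± 0.12, limma adjusted p = 0.011). Fasted, it had 8.91, 6.03 and 7.49 FPKM with virus and 3.69, 3.73 and 3.62 FPKM without (0.84 ± 0.12, limma adjusted p = 0.013), so that groups were apart in both states. Eef1e1, a scaffold of the aminoacyl-tRNA synthetase complex, was at 0.47 ± 0.10 refed and 0.56 ± 0.10 fasted (limma adjusted p = 0.035 and 0.045). Its refed call was lost when any 1 library was left out (limma adjusted p between 0.051 and 0.16) and under the common-median scaling (limma adjusted p = 0.11).

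Refed livers without Foxo1 also differ in virus and cohort, and share no library with the controls. They differ further in how Foxo1 was lost, by an injected virus in Cre refed and by an albumin-Cre transgene in KO refed livers. The fit used a shared estimate of spread at each locus, so calls of this comparison are not independent of the refed control calls. Cre refed against KO refed livers gave 2214 calls (20.7%), 1697 higher and 517 lower. Of the 83 higher calls 78 lay above 0 there (94.0%, against 64.0% of all loci) and 54 were called higher (65.1%, against 15.9%), while of the 18 lower calls 15 lay below 0 (83.3%, against 36.0%) and 7 were called lower (38.9%, against 4.84%). Nab1, Rgs3, Ppap2a, Eef1e1, Apoa1, Stip1, Stard4 and both Hba-a1 loci were called in the same direction. Ppap2a, Eef1e1 and Hba-a1 were the loci called alike in all 3 comparisons. The male programme was an exception: Mup20 was at -0.06 ± 0.48 and Cyp2d9 at 0.08 ± 0.33 in Cre refed against KO refed livers, and the male-biased list had 17 of 20 above 0 with a median of 0.26, while it had 1 of 20 above 0 and a median of -0.86 in the fasted controls. Across the 10682 loci, which are not independent, the refed control differences had a Pearson correlation of 0.165 with the fasted and 0.241 with the Cre and KO differences.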

How the data were processed

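The authors deposited 1 table per library of gene FPKM values (fragments per length and per mapped fragments). Per the submitters' processing notes the tools were Cufflinks, Cuffdiff and HISAT2, with no versions, on build mm10. Whether counting used strand is not given in the sources, so antisense overlap cannot be resolved. Groups came from the sample titles. Each table held 23746 loci of 23284 symbols, and 14 loci marked as failed in any library were dropped. A listed 0 can be a failed estimate: 20 of the 2435 loci whose median reached 20 FPKM had one in at least 1 library. Depth was unknown and no counting interval is given.

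Loci with FPKM of at least 1 in at least 3 of the 24 libraries (10682) entered the test on the log2(FPKM + 1) scale, by limma 3.58.1 (trend) in R 4.3.3, in 1 fit of all 24 libraries with a coefficient per group. P-values are two-sided, adjusted by Benjamini-Hochberg over all loci, and called at 0.05. In simulated data the fit was tested with known changes. Tables were made in Python 3.11.15 with pandas 2.3.3. Alternatives were another pseudocount, filters, scaling, groups alone, array weights, a replicate block, a stricter threshold, depth and leaving out libraries.

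The libraries and the 53 gene lists (934 entries, 907 of them in the files) were chosen with earlier results of these data known. Named genes were Foxo1; the 10 higher and 10 lower calls with the largest log2 difference whose groups do not overlap and whose higher group averages at least 2 FPKM, without predicted genes, clones, small RNAs, immune receptor segments and repeated or joint loci; up to 4 called genes per list; fixed metabolic genes; calls of the difference between states; and genes called alike in 3 comparisons. Some genes this rule selects are not reported here. Other genes are named as examples chosen after their values were seen. Sequences are from RefSeq GRCm38.p6.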

Additional observations from a re-analysis of the deposited data

Results flagged for a closer look

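Nab1 was singled out because its difference between GFP and WT livers was not the same in the refed and the fasted state by a test of that difference. The refed difference minus the fasted difference was -1.80 ± 0.22 on the log2(FPKM + 1) scale (SE; limma adjusted p = 0.0013). The 3 GFP refed livers averaged 2.08 ± 0.298 FPKM and the 3 WT refed livers 8.60 ± 0.924 FPKM, while GFP fasted livers averaged 3.02 ± 0.326 FPKM and WT fasted livers 2.62 ± 0.472 FPKM (SD, n = 3 each). Whether virus, cohort or the course of feeding moves it cannot be told apart.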

How the results depend on the processing

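The refed count of 101 calls became 57 with no filter on low values, 6 with the compared groups alone, 2 at an adjusted p of 0.01 (Nab1 among them), 183 with depth as a term, 47 in the deeper libraries, and 1 to 250 with each library left out. It was 76 with a pseudocount of 0.1, 84 with a filter at FPKM 5 and 91 with array weights. The fasted count of 11 became 2 with a pseudocount of 0.1, 3 with no filter, 1 with a filter at FPKM 5, 3 with scaling, 2 with the groups alone, 18 with array weights, 5 with depth as a term, 0 at 0.01 (limma; 1252 loci at an unadjusted p under 0.05) and 0 to 14 with each library left out (limma; 828 to 1604 at an unadjusted p under 0.05). The count of 1 for the difference between states became 3 with the groups alone, 5 in the deeper libraries and 1 to 3 with each library left out. The Cre and KO count of 2214 became 78 with the groups alone, 725 at 0.01, 367 in the deeper libraries and 604 to 2002 with each library left out. The cause of these moves was not tested, other than fewer libraries or a stricter threshold by construction. Without a filter more loci shared the adjustment, 18009 in place of 10682.

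Same-numbered GFP refed and WT refed libraries did not deviate together (correlations of 0.020, -0.030 and -0.026). Differently numbered ones reached 0.102 (GFP refed 2 with WT refed 3). No pairing by number was seen, but 3 libraries a group cannot exclude one. With a replicate block the refed count was 100, the fasted count 6, that of the difference between states 1 and that of Cre and KO 2183.

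Signs turned for 4 of the named genes, none of them called. Srebf1 was at 0.05 with array weights, at 0.23 in the deeper libraries, and, over the libraries left out, between -0.37 and 0.25, positive without GFP refed 1 (0.01) and without WT refed 1 (0.25). Cyp7a1 was at -0.15 in the deeper libraries and -0.16 without GFP refed 2 (up to 0.38 without another library), Fgf21 at -0.10 in the deeper libraries, and Nnt at -0.02 with scaling and -0.05 without WT refed 2 (up to 0.14 without another library). With 3 libraries a group and an unknown total depth, differences of low genes are the least certain.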

Other observations

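Values outside the rule for named genes are given here without explanation. Gm4956, a predicted gene that was called (limma adjusted p under 0.05), had 1.80, 1.47 and 2.19 FPKM in GFP refed livers, against 7.27, 6.00 and 8.64 FPKM in WT refed livers. Its mean was 6.77 FPKM in GFP fasted and 6.46 FPKM in WT fasted livers, and 8.47 FPKM in Cre refed and 6.06 FPKM in KO refed livers, so that GFP refed livers had the lowest mean of these 6 groups.

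The female-biased sulfotransferase genes did not reach the filter on low values but were high in 1 library. Sult2a2 had 85.1 FPKM in GFP refed 2, 0.168 FPKM in GFP refed 3 and a listed 0 in GFP refed 1 and in all 3 WT refed livers. Sult3a1 had 49.0 FPKM in GFP refed 2, 0.403 FPKM in GFP refed 3 and a listed 0 in GFP refed 1, and at most 0.179 FPKM in WT refed livers. Onecut1, a hepatocyte transcription factor induced by growth hormone, had 20.1, 7.52 and 17.4 FPKM in GFP refed livers, against 2.03, 5.89 and 3.95 FPKM in WT refed livers (log2 difference 1.67 ± 0.48, limma adjusted p = 0.088). Cish, a feedback inhibitor of that pathway, had 34.7, 10 and 22.4 FPKM, against 7.94, 11.5 and 3.22 FPKM (1.43 ± 0.47, limma adjusted p = 0.12).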
